A study of Mus musculus with 6 samples.

Results

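The kinesins expressed in the embryonic mouse cortex were described here as a family, from the motors that build the mitotic spindle to those that carry cargo in young neurons. Members were all protein-coding genes of the GENCODE M21 annotation whose symbol is Kif followed by a digit. Of 39 such genes, 36 were among the 17068 genes of the filtered count table, and Kif2b, Kif12 and Kif28 were not analysed here. The 36 comprised 11 mitotic kinesins, 7 transport kinesins enriched in neurons, 8 broadly expressed transport kinesins, 6 kinesins of the cilium and Hedgehog signalling, and 4 others. Among the others, Kif1bp encodes a protein that binds kinesins and is not itself a motor.

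Bulk RNA-Seq was performed on lateral cortex of 6 female c57/bl6 embryos at embryonic day (E) 12.5. The 4 Cre-negative controls carried conditional Foxp1 alleles, with the genotype Foxp1 fl/+ in controls 1, 2 and 4 and Foxp1 fl/fl in control 3. The 2 embryos labelled Foxp1cKO, termed the labelled mutants, carried Foxp1 fl/fl and Emx1Cre, a Cre expressed in progenitors of the dorsal telencephalon and not in cells that enter the cortex from elsewhere, such as endothelial cells, microglia and interneurons. The comparison asked which kinesins differ when Foxp1 is deleted in radial glia, the dividing stem cells that line the ventricle. The labels name the libraries as separate samples, and p-values measure the spread between these samples.

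Libraries held 50076008 to 78346979 counts on genes, so that a floor of 3 counts corresponded to 0.0381 to 0.0596 CPM, the usual unit of counts scaled to the size of the library, here with TMM factors. The cortex markers Pax6, Eomes and Tbr1 were at 217 ± 33.2, 310 ± 55.7 and 368 ± 98.2 CPM in the controls (mean ± SD, n = 4). Foxp1 itself showed no decrease in the labelled mutants. Its levels were 59.7, 60.8, 71.2 and 79.1 CPM in controls 1 to 4 and 83.2 and 76.8 CPM in the 2 labelled mutants (log2 fold change 0.24, SE 0.129, edgeR quasi-likelihood test with Benjamini-Hochberg adjusted p = 0.468). Whole-gene counts cannot tell the deleted exons from the remaining ones, and groups are therefore named by their labels. Over all 17068 genes, 26 passed an adjusted p of 0.05 in this test, all of them higher, which is 0.152% of genes tested.

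Kinesins hydrolyse ATP to move along microtubules, mostly towards the plus end, or to take microtubules apart at their ends. Dividing cells use a set of them to separate the spindle poles, align chromosomes and finish cytokinesis, and transcribe these genes mainly in the late phases of the cell cycle. Neurons no longer divide and use other kinesins to carry vesicles, mitochondria and proteins along axons and dendrites. The cortex at this age holds both dividing progenitors and the first neurons, and in bulk RNA fewer cells of a type and less RNA per cell cannot be told apart.

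Levels of different genes were compared per length, as RPKM, the CPM divided by the length of annotated exon in kilobases. In the controls the neuronal conventional kinesin Kif5c stood first, with 91.9, 109, 113 and 88.5 RPKM in controls 1 to 4. It was followed by Kif21a, a regulator of microtubule growth, at 59.0 ± 2.32 RPKM (mean ± SD, n = 4). Kif1b, a carrier of mitochondria and synaptic vesicle precursors, was at 51.6 ± 7.0 RPKM. Kif1a, the axonal carrier of synaptic vesicle precursors, was at 51.3 ± 9.60 RPKM, Kif21b at 50.5 ± 11.8 RPKM and the spindle motor Kif11 at 48.3 ± 6.58 RPKM. These last 4 differed by less than their spread between controls. Among the mitotic kinesins Kif11 was followed by Kif20a at 36.8 ± 7.88 RPKM and Kif4 at 29.0 ± 3.88 RPKM, and Kif14 was lowest at 6.03 ± 0.958 RPKM. At the foot of the family stood Kif19a at 0.159 ± 0.0506 RPKM, Kif17 at 0.178 ± 0.0335 RPKM and Kif9 at 0.382 ± 0.0352 RPKM, all of them proteins of the cilium. The least counted of these in any library was Kif19a with 30 counts, above the floor of 3.

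**Figure D1:**
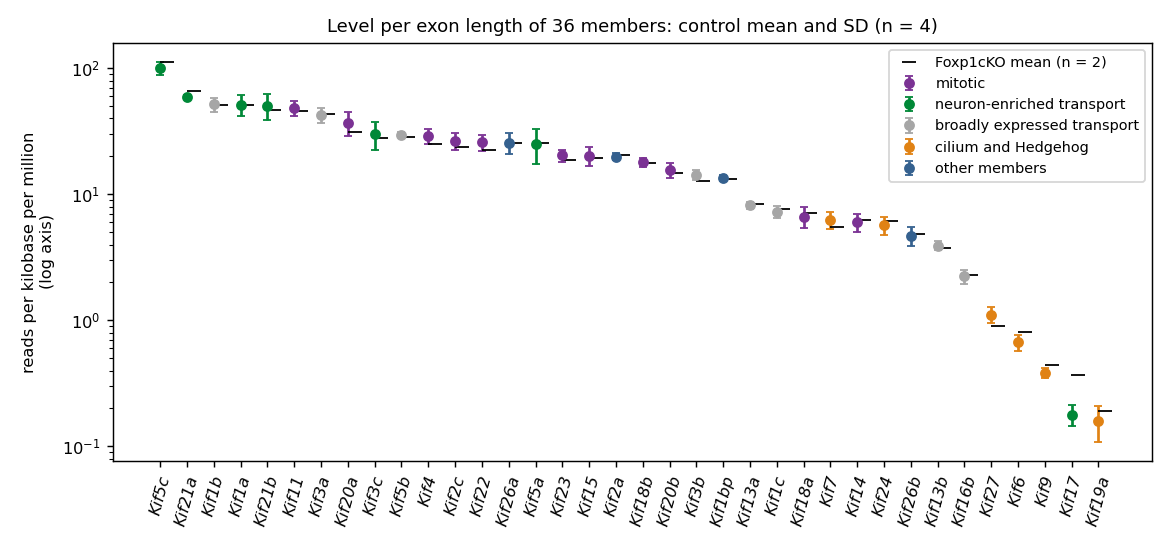
Level per exon length of the 36 members, in RPKM on a log axis, with the mean and SD of the 4 controls as points and bars and the mean of the 2 libraries labelled Foxp1cKO as a short line. Kif5c leads at 100.6 RPKM in the controls, and mitotic and neuron-enriched members are interleaved between about 25.2 (Kif5a) and 48.3 RPKM (Kif11). Below that range lie mitotic members and, at the low end, the neuron-enriched member Kif17.

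Neuron-enriched and mitotic members together made up most of the family's RNA per length. The 7 neuron-enriched kinesins took 38.0%, 41.6%, 43.9% and 32.8% of the summed RPKM of all members in controls 1 to 4, and 40.8% and 41.7% in the labelled mutants. The 11 mitotic kinesins took 32.7%, 28.9%, 25.6% and 39.0% in the controls and 29.9% and 28.4% in the labelled mutants. Control 4 therefore had the highest mitotic and the lowest neuron-enriched share, control 3 had the reverse, and the labelled mutants lay between them in both.

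The 250 bases before the RefSeq start of each gene were searched for letters of elements known from cell cycle promoters. They are the cell cycle genes homology region, TTTGAA, and the CCAAT box, each on either strand. The 2 words can share at most 1 letter, and a gene with several RefSeq starts was counted once if any of its windows held the word. RefSeq windows on GRCm38.p6, the assembly of mm10, were matched for 30 of the 36 members, and Kif5a, Kif5b, Kif13b, Kif19a, Kif20a and Kif21b had none. TTTGAA was found for 5 of 10 mitotic kinesins (Kif2c, Kif11, Kif14, Kif15 and Kif22), against 18.3% of all 27025 genes with a window. CCAAT was found for 6 of 10 (Kif4, Kif11, Kif14, Kif18b, Kif22 and Kif23), against 37.5% of all genes. Kif11, Kif14 and Kif22 held both, as did 6.45% of all genes. Of 17492 protein-coding genes with a window, 16.9% held TTTGAA, 39.5% held CCAAT and 6.13% held both. Of 5 neuron-enriched kinesins, Kif1a held TTTGAA in 1 of its 2 windows and none held CCAAT. The forkhead word TGTTTAC was in none of the 30 matched members' windows and in those of 3.54% of all genes and 3.04% of protein-coding genes. A match is a description of letters and not a binding site. The windows of 3 mitotic and 2 neuron-enriched kinesins are shown to contrast those with and without the words, in lower case with both words and their reverse complements in capitals. All 5 windows overlap no GENCODE exon, but other counted windows did, with 250 bases in exons for Kif4, 205 for Kif15 and 51 for Kif22. That of Kif14 lies in an intron of a longer annotated transcript, and the others shown lie before the first annotated exon. The windows that gave TTTGAA for Kif2c and Kif1a also lie inside the annotated gene. The counts above therefore include windows that are not upstream of the annotated gene start.
Kif11, chr19:37376132-37376381, plus strand: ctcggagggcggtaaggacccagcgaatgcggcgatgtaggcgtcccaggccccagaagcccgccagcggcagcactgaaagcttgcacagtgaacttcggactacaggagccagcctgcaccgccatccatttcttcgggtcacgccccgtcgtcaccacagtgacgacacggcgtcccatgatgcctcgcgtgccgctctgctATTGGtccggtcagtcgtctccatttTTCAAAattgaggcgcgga
Kif14, chr1:136467598-136467847, plus strand: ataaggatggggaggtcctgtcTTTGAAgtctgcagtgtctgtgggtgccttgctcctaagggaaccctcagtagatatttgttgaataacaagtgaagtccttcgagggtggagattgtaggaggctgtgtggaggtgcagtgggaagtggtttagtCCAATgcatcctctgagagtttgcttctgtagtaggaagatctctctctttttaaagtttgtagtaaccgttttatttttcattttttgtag
Kif18b, chr11:102925125-102925374, minus strand: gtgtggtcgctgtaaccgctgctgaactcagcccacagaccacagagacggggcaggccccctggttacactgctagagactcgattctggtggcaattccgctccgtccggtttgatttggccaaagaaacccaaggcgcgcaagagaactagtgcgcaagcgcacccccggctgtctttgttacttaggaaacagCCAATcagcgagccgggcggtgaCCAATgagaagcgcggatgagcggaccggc
Kif3c, chr12:3364882-3365131, plus strand: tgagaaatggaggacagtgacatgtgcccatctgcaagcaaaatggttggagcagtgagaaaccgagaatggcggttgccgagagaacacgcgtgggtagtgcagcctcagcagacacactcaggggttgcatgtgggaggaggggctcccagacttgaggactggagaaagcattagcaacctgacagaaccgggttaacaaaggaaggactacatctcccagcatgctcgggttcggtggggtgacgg
Kif5c, chr2:49619036-49619285, plus strand: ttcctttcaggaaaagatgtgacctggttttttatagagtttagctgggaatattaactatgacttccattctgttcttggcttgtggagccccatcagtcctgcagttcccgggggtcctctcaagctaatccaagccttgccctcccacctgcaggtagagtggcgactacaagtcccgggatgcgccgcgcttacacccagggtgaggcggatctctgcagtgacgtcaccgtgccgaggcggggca

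Mitotic kinesins varied together between control embryos and did not separate the groups. None of the 11 passed the edgeR test between groups, against 0.152% of all genes. None reached an unadjusted p of 0.05 in it, against 13% of all genes. In all 11 the labelled mutants overlapped the controls, while 24.6% of all genes had both labelled mutants outside the range of the controls. The fitted log2 fold changes, as labelled Foxp1cKO minus control, were below 0 for 9 and above 0 for 2, with a median of -0.093. Over all genes, 8661 were below 0 and 8407 above, with a median of -0.0044. The 95% intervals of all 11 lay between 0.620-fold and 1.41-fold. The median moved with single libraries, to 0.0015 without control 4, -0.0012 without Foxp1cKO 2, -0.17 without control 3 and -0.21 without Foxp1cKO 1.

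Kif11, which pushes the spindle poles apart, was at 354, 345, 314 and 429 CPM in controls 1 to 4 and at 349 and 338 CPM in the labelled mutants. Control 4 was highest and control 3 lowest, and both labelled mutants lay between controls 3 and 1. The fitted log2 fold change was -0.070 (SE 0.127, edgeR quasi-likelihood test with Benjamini-Hochberg adjusted p = 0.850). Kif15, which helps to hold the bipolar spindle, was at 224, 211, 184 and 272 CPM in the controls and at 225 and 203 CPM in the labelled mutants, with the same 2 controls at the ends. Its log2 fold change was -0.058 (SE 0.151).

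The motors of cytokinesis followed the same order of controls. Kif20a, which carries regulators to the spindle midzone, was at 168, 148, 121 and 202 CPM in the controls and at 143 and 128 CPM in the labelled mutants. It had the lowest fitted log2 fold change of the mitotic kinesins at -0.24 (SE 0.192), with an edgeR quasi-likelihood, Benjamini-Hochberg adjusted p of 0.624. The labelled mutants were below controls 1, 2 and 4 and above control 3. Kif23, the motor subunit of centralspindlin, was at 170, 154, 140 and 180 CPM in the controls and at 163 and 134 CPM in the labelled mutants. The groups overlapped, with Foxp1cKO 2 just below control 3 (log2 fold change -0.12, SE 0.127). Kif20b, which acts in abscission, was at 110.7, 100.8, 93.6 and 129.4 CPM in the controls and at 110.7 and 93.0 CPM in the labelled mutants, again with Foxp1cKO 2 just below control 3. Kif14, which acts at the midbody, was at 62.2, 59.0, 52.6 and 76.1 CPM in the controls and at 68.4 and 61.9 CPM in the labelled mutants, and its log2 fold change was 0.061 (SE 0.146).

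The chromosome motors and microtubule depolymerases gave 2 of the 3 lowest fitted values and the highest. Kif22, a chromokinesin that pushes chromosome arms outward, was at 136, 121, 104 and 147 CPM in the controls and at 110 and 109 CPM in the labelled mutants (log2 fold change -0.21, SE 0.137). Kif4, a chromokinesin that also acts in the central spindle, was at 167, 156, 133 and 184 CPM in the controls and at 142 and 137 CPM in the labelled mutants (log2 fold change -0.20, SE 0.128). For both genes the labelled mutants were just above control 3 and below the other controls, and the edgeR quasi-likelihood, Benjamini-Hochberg adjusted p was 0.537 for each. Kif2c, which removes faulty attachments of chromosomes by taking microtubules apart, was at 119.6, 109.7, 96.3 and 139.2 CPM in the controls and at 108.1 and 100.4 CPM in the labelled mutants, which were above control 3 and below the other controls. Kif18a, which dampens chromosome movements at the metaphase plate, was at 63.2, 59.6, 55.1 and 83.6 CPM in the controls and at 73.9 and 66.8 CPM in the labelled mutants. It had the highest fitted value of the list, a log2 fold change of 0.10 (SE 0.167), and both labelled mutants were above 3 of the 4 controls. Kif18b, which shortens astral microtubules, was at 65.6, 64.7, 57.4 and 69.1 CPM in the controls and at 68.4 and 58.3 CPM in the labelled mutants, both within the controls. Overlapping genes on the opposite strand include Mettl15 for Kif18a, Pdzd11 for Kif4 and Cdc23 for Kif20a. Gene models with no assigned name overlap Kif11, Kif14, Kif15, Kif18b and Kif22 on either strand, Mir1950 lies in Kif20b, and the strand setting of the counting is not given in the sources used here.

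The order of the controls was the common feature of the mitotic kinesins. Control 4 was highest and control 3 lowest of the controls for 11 of 11, an order seen for 22.3% of all genes. The highest control exceeded the lowest by 1.20-fold for Kif18b to 1.67-fold for Kif20a, with a median of 1.41-fold over the list and 1.37-fold over all genes. The mean of the labelled mutants lay between controls 3 and 4 for 11 of 11. As these controls were the ends of the range for all 11, this only places the mean within the range of the controls. The share of all genes for which this holds was not counted. Both labelled mutants lay between controls 3 and 4 for 9 of 11, the exceptions being Kif20b and Kif23, where Foxp1cKO 2 was below control 3. Foxp1cKO 1 was above Foxp1cKO 2 for all 11. Control 3 was also the only control homozygous for the conditional allele, and its genotype cannot be told apart from other features of that embryo. Genes measured in the same libraries are not independent replicates, so these counts describe 6 embryos.

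**Figure D2:**
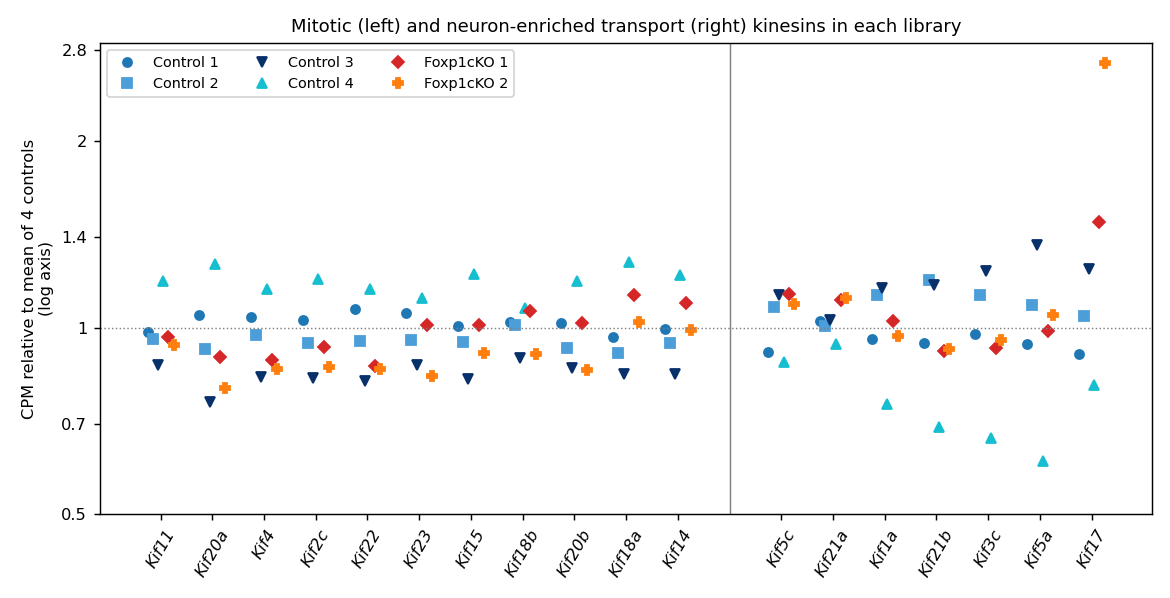
CPM of each mitotic kinesin (left) and neuron-enriched kinesin (right) in each of the 6 libraries, divided by the mean of the 4 controls, on a log axis. Control 4 is the highest control for 11 of 11 mitotic and the lowest for 7 of 7 neuron-enriched members, and Kif17 in Foxp1cKO 2 stands furthest from the control mean.

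The neuron-enriched kinesins showed the opposite order of controls and, Kif17 and Kif21a apart, overlapped between groups. Control 4 was lowest for 7 of 7, against 30.3% of all genes, and control 3 was highest for 6 of 7, the exception being Kif21b, highest in control 2. Control 3 highest with control 4 lowest was seen for 19% of all genes. Fitted log2 fold changes were above 0 for 4 and below 0 for 3, with a median of 0.027, and none of the 7 was called. The median was -0.12 without control 4 and -0.023 without control 1.

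The conventional kinesin heavy chains of neurons carry cargo into axons. Kif5a was at 166, 192, 239 and 107 CPM in controls 1 to 4 and at 174 and 185 CPM in the labelled mutants. The highest control exceeded the lowest by 2.23-fold, the widest ratio of the 36 members, and both labelled mutants lay within the controls (log2 fold change 0.027, SE 0.276, edgeR quasi-likelihood test with Benjamini-Hochberg adjusted p = 0.978). Kif5c was at 656, 775, 810 and 632 CPM in the controls and at 813 and 783 CPM in the labelled mutants. Foxp1cKO 1 was just above control 3, and Foxp1cKO 2 lay within the controls (log2 fold change 0.15, SE 0.12). Of the RPKM summed over the conventional heavy chains Kif5a, Kif5b and Kif5c, Kif5c took 63.5% to 68.0% in every library. Kif5a took 16.4%, 16.6%, 19.4% and 11.3% in the controls and 14.9% and 16.0% in the labelled mutants, and Kif5b, the form of most cell types, took 20.1%, 17.8%, 16.2% and 23.4% against 17.1% and 17.4%. Kif5b thus exceeded Kif5a per length in controls 1, 2 and 4 and in both labelled mutants, and was below it in control 3.

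Kif1a was at 459, 541, 554 and 360 CPM in the controls and at 491 and 464 CPM in the labelled mutants, and the group means of 479 ± 89.5 (SD, n = 4) and 477 ± 19.2 (SD, n = 2) CPM nearly coincided. Its log2 fold change was -0.0041 (SE 0.173), with an edgeR quasi-likelihood, Benjamini-Hochberg adjusted p of 0.994 and a 95% interval of 0.752-fold to 1.32-fold. Kif3c, a kinesin-2 subunit that pairs with Kif3a, was at 216, 250, 273 and 147 CPM in the controls and at 205 and 211 CPM in the labelled mutants (log2 fold change -0.089, SE 0.225). Kif21b, which limits microtubule growth, was at 581, 733, 721 and 425 CPM in the controls and at 565 and 568 CPM in the labelled mutants (log2 fold change -0.12, SE 0.213). For both genes the labelled mutants were below controls 1, 2 and 3 and above control 4.

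Kif21a and Kif17 were the neuron-enriched kinesins whose labelled mutants were both above all controls, a pattern shown by 11.5% of all genes. Kif21a was at 391, 384, 392 and 360 CPM in the controls and at 423 and 426 CPM in the labelled mutants. The groups did not overlap, and the log2 fold change was 0.15 (SE 0.0719) with a 95% interval of 0.988-fold to 1.25-fold, which was not called (edgeR quasi-likelihood test with Benjamini-Hochberg adjusted p = 0.420). Kif17, a kinesin-2 motor of dendrites and cilia, was at 0.743, 0.853, 1.02 and 0.660 CPM in the controls and at 1.21 and 2.19 CPM in the labelled mutants. Foxp1cKO 2 was well above Foxp1cKO 1, and the lowest library held 46 counts and the highest 166. The log2 fold change was 1.06 (SE 0.312, 95% interval 1.25-fold to 3.48-fold), the unadjusted p in the edgeR quasi-likelihood test was 0.011, and the Benjamini-Hochberg adjusted p of 0.282 was the smallest of any kinesin. Without Foxp1cKO 2 the log2 fold change of Kif17 was 0.55. An annotated gene on the same strand, Sh2d5, overlaps Kif17, and reads in the overlap cannot be assigned to either.

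Set against each other, the 2 lists spread widely among the controls. The mean log2 CPM of the neuron-enriched list minus that of the mitotic list was 0.23, 0.54, 0.83 and -0.32 in controls 1 to 4, and 0.45 and 0.71 in the labelled mutants. Both labelled mutants lay between controls 1 and 3. The group means were 0.32 ± 0.49 (SD, n = 4) and 0.58 ± 0.19 (SD, n = 2), a difference of 0.26 that was smaller than the SD of the controls and than their range of 1.14, or 2.21-fold. The difference was 0.049 without control 4, 0.43 without control 3 and, in a setting chosen after the data were seen, 0.13 without Kif17. Single pairs followed the same order, and the RPKM ratio of Kif5a to Kif11 was 0.499, 0.593, 0.814 and 0.267 in controls 1 to 4 and 0.532 and 0.583 in the labelled mutants. The ratio of Kif5a to Kif20a was 0.613, 0.805, 1.23 and 0.330 in the controls and 0.753 and 0.899 in the labelled mutants. Control 3 was thus the only library in which Kif5a exceeded Kif20a per length.

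Genes that work with the mitotic kinesins had the same order of controls. Of 18 listed partners, among them Tpx2, Prc1, Aurkb and Plk1 and the mitotic motors Kifc1 and Cenpe that the symbol rule leaves out, control 4 was highest and control 3 lowest for 18. Fitted log2 fold changes were below 0 for 16 and above 0 for 2 (Ect2 and Anln), with a median of -0.097. None was called or had an unadjusted p under 0.05 in the edgeR test, against 13% of all genes at that p. Aurka was at -0.19 (SE 0.216), while the study's fit with a litter term lists it among its genes lower in the mutants. The paper also reports terms of the cell cycle and mitosis as underrepresented without Foxp1. Cenpe, the kinetochore motor that moves chromosomes to the plate, was at 292, 269, 236 and 339 CPM in controls 1 to 4 and at 299 and 253 CPM in the labelled mutants. Tpx2, which binds the Kif11 motor to the spindle, was at 309, 293, 252 and 354 CPM in the controls and at 301 and 265 CPM in the labelled mutants. Both genes had the labelled mutants within the controls.

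Cargo adaptors, light chains and dynein subunits had control 4 at the low end, as the neuron-enriched kinesins did. Control 4 was lowest for 18 of 18, against 30.3% of all genes, and control 3 was highest for 13 of these. Control 3 highest with control 4 lowest was seen for 19% of all genes. The list includes Kif1bp, which is also counted among the other members of the family. Log2 fold changes were below 0 for 14 and above 0 for 4, with a median of -0.064, and none was called. Dync1i1 was at -0.054 (SE 0.476), while the study's fit with a litter term lists it among its genes higher in the mutants. An unadjusted p under 0.05 was found for 2 of 18, against 13% of all genes. Fez1, an adaptor of conventional kinesin in axon growth, was at 319, 333, 336 and 294 CPM in the controls and at 270 and 280 CPM in the labelled mutants (log2 fold change -0.22, edgeR quasi-likelihood test with Benjamini-Hochberg adjusted p = 0.347). Mapk8ip1, a JNK scaffold that binds kinesin light chains, was at 137, 142, 142 and 135 CPM in the controls and at 121 and 127 CPM in the labelled mutants (log2 fold change -0.17, edgeR quasi-likelihood test with Benjamini-Hochberg adjusted p = 0.371). In both genes the labelled mutants were below all controls, as they were for Klc2, while Trak1 had both above. That is 3 of 18 below, against 13.1% of all genes, and 1 of 18 above, against 11.5%.

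Several lists of cell type markers also differed between controls. Summed over 7 of 8 listed markers of postmitotic cortical neurons, levels were 3906, 4717, 5048 and 2798 CPM in controls 1 to 4 and 3628 and 3797 CPM in the labelled mutants, and control 4 was lowest for all 7. Fitted log2 fold changes of these 7 were below 0 for 5 and above 0 for 2, with a median of -0.20. Of 6 of 7 listed radial glia markers, control 4 was highest for 5 and control 3 lowest for 4, and their sum was 1922 to 2343 CPM in the controls and 2065 to 2157 CPM in the labelled mutants. The exception, Fabp7, was at 254, 333, 286 and 207 CPM in controls 1 to 4 and at 190 and 210 CPM in the labelled mutants. Fitted log2 fold changes of the 6 were above 0 for 4 and below 0 for 2, with Fabp7 lowest at -0.43. All 6 markers of the ventral telencephalon and interneurons, cells outside the Emx1Cre lineage, were highest in control 3, with a sum of 796 CPM there against 226 to 347 CPM in the other controls and 370 to 501 CPM in the labelled mutants. The 4 meningeal markers summed to 241, 64.5, 35.9 and 141 CPM in controls 1 to 4 and to 49.5 and 130 CPM in the labelled mutants. The 6 red cell markers summed to 1009 to 2868 CPM in the controls and 3037 to 3365 CPM in the labelled mutants. Of this, Hbb-y alone was at 754 to 2340 CPM in the controls and at 2454 and 2739 CPM in the labelled mutants. For 3 of 6 (Hba-a1, Hbb-y and Alas2) both labelled mutants were above all controls, against 11.5% of all genes. The same 3 had an unadjusted p under 0.05 in the edgeR test, against 6.53% of all genes in this direction. Hba-a2, Hbb-bt and Hbb-bs overlapped, Hbb-bs being lower in the fit, and none was called. Red cell, ventral and meningeal markers were above 0 in every library, and their part in the kinesin values was not tested. From control 4 to control 3 the median log2 difference was -0.49 for mitotic kinesins, -0.47 for radial glia markers, 0.62 for neuron-enriched kinesins, 0.77 for neuron markers and 1.74 for ventral markers. For the other marker lists it was -2.02 (meninges), -1.11 (red cells), -0.31 (microglia), -0.29 (endothelial cells), -0.28 (Cajal-Retzius cells) and 0.088 (mural cells). It was -0.032 for markers of intermediate progenitors, the dividing daughters of radial glia.

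**Figure D3:**
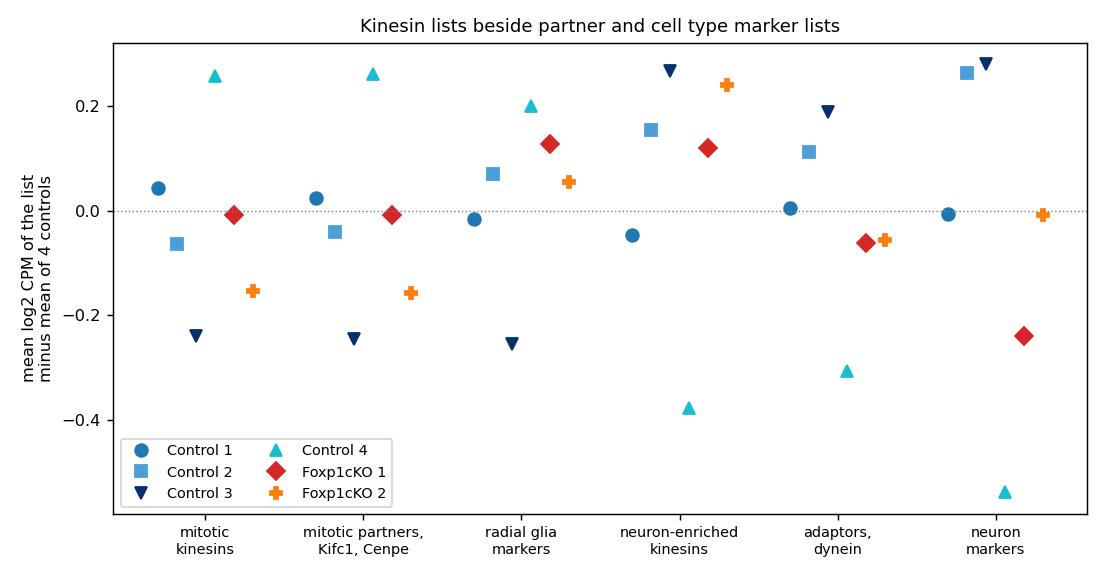
Mean log2 CPM of 6 gene lists in each of the 6 libraries, as the difference from the mean of the 4 controls. Mitotic kinesins and their partners have control 4 on top and control 3 at the bottom, as do radial glia markers, and neuron-enriched kinesins, adaptors and neuron markers have the reverse, while the labelled mutants lie within the range of the controls for all 6 lists.

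As a list the broadly expressed transport kinesins varied least between controls, although single members spanned 1.11-fold to 1.39-fold. Mean log2 CPM of the 8 was 6.60 to 6.67 over the controls and 6.61 to 6.64 in the labelled mutants, and their share of the summed RPKM was 18.8% to 20.7% in all 6 libraries. Fitted log2 fold changes were above 0 for 4 and below 0 for 4. Kif5b, the general conventional kinesin, was at 232, 235, 228 and 252 CPM in controls 1 to 4 and at 229 and 229 CPM in the labelled mutants, so that its highest control exceeded its lowest by 1.11-fold. Kif1b was at 915, 983, 1005 and 733 CPM in the controls and at 938 and 858 CPM in the labelled mutants, again within the controls. Kif3b, a kinesin-2 subunit needed for cilia, was at 78.0, 84.2, 87.3 and 71.7 CPM in the controls and at 71.5 and 71.6 CPM in the labelled mutants. Both labelled mutants were below all controls, though only just below control 4, a pattern shown by 13.1% of all genes, and the log2 fold change of -0.17 (SE 0.0960) was not called (edgeR quasi-likelihood test with Benjamini-Hochberg adjusted p = 0.496). Its partners Kif3a and Kifap3 had fitted log2 fold changes of 0.024 and -0.044 and overlapped between groups.

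Kinesins of the cilium and of Hedgehog signalling had their highest control level in control 4 for 6 of 6, against 36.3% of all genes. Log2 fold changes were above 0 for 4 and below 0 for 2, with a median of 0.16. All 6 overlapped between groups, while 24.6% of all genes had both labelled mutants outside the range of the controls. Kif7, which acts with Gli factors at the cilium tip, was at 30.9, 29.0, 22.2 and 32.0 CPM in the controls and at 25.4 and 25.5 CPM in the labelled mutants (log2 fold change -0.17, SE 0.152), and its paralogue Kif27 had the lowest fitted value of the family at -0.31 (SE 0.199). Kif24, which restrains cilium assembly in cycling cells, was at 38.5 to 56.3 CPM in the controls and at 52.9 and 45.3 CPM in the labelled mutants. Kif6 and Kif9, of motile cilia, and Kif19a, which sets cilium length, had log2 fold changes of 0.26, 0.21 and 0.28 with SEs of 0.196, 0.257 and 0.364. Kif9 was at 1.631, 1.497, 1.592 and 1.854 CPM in the controls and at 2.365 and 1.450 CPM in the labelled mutants, with Foxp1cKO 1 above all controls and Foxp1cKO 2 below them. Kif19a was at 0.517, 0.563, 0.549 and 0.952 CPM in the controls and at 0.596 and 0.962 CPM in the labelled mutants. The 4 other members (Kif2a, a depolymerase of neurites and spindles, Kif26a, Kif26b and Kif1bp) had log2 fold changes between -0.037 and 0.066.

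Over the family, edgeR's quasi-likelihood test called 0 of 36 kinesins after Benjamini-Hochberg adjustment, against 0.152% of all genes. At an unadjusted p of 0.05 the test gave 1 of 36, Kif17, against 13% of all genes. That gene was higher, as were 6.53% of all genes at this p, and 0 kinesins were lower, against 6.5%. DESeq2 and limma also called none of the 36, with 1 each at an unadjusted p of 0.05, while DESeq2 called 3.36% of the 15067 genes to which it gave an adjusted p, 2.06% higher and 1.31% lower. Both labelled mutants lay outside the range of the controls for 3 of 36 (Kif17 and Kif21a above, Kif3b below), against 24.6% of all genes. Fitted log2 fold changes were above 0 for 16 and below 0 for 20, with a median of -0.014. The test leaves differences inside each interval possible, and those of the mitotic and neuron-enriched members other than Kif17 reached from 0.620-fold to 1.60-fold at their widest.

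**Figure D4:**
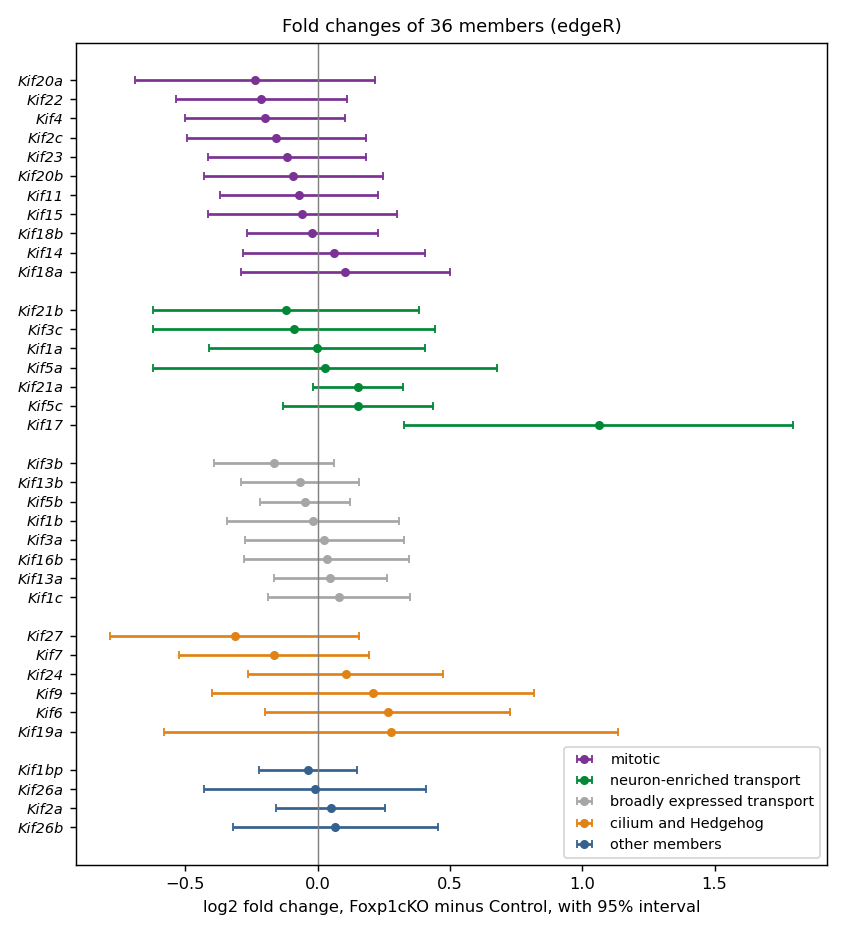
Log2 fold change, as labelled Foxp1cKO minus control from the edgeR fit, of each of the 36 members with its 95% interval, grouped by role. The intervals of 35 members include 0, and that of Kif17 runs from 0.32 to 1.80.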

How the data were processed

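Per the labels and the study's methods, the authors prepared stranded libraries (TruSeq) from total RNA, used STAR to align the read pairs (mm10), obtained gene counts from HTSeq 0.9.1 in union mode and removed genes with few counts. The deposited table holds whole counts that are not normalized. A second deposited table holds the same counts after the variance stabilizing transformation (VST) of DESeq2 1.30.1, on a scale close to log2, and was used here only in an alternative. The litter term of the authors' model is not in the labels and was not used here.

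Groups and replicate numbers came from the sample labels. Of 17068 gene identifiers, 17047 were matched to GENCODE M21, another release than the authors', without the version suffix. All 36 kinesins matched in this way, 33 of them with the same version (not Kif5b, Kif11 and Kif20a). The roles, partner lists and marker lists were chosen with earlier results of these data known, and none of their counts is independent evidence. In all, 18 mitotic and neuron-enriched members are given by library, and other members where an unadjusted p was under 0.05, the groups did not overlap, or the level per length was among the 3 highest or 3 lowest. Further members were named after their values were seen.

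Counts were tested in R 4.3.3 with edgeR 4.0.16's quasi-likelihood test (TMM, group alone, all genes), with Benjamini-Hochberg adjustment and a threshold of 0.05. Intervals are 95%. RPKM is CPM over the summed exon length in kilobases, and log2 CPM used a prior count of 2. The scripts were tested on simulated data. Alternatives were DESeq2 1.42.0, limma 3.58.1 on the VST values, other size factors, a mean of at least 50 counts, each library left out and a replicate block. Library totals ran from 50076008 to 78346979 counts, and floors cover counting error only. Chi-square per gene was 25.9 to 193 between pairs of libraries of a group, so none was a repeat of another. Deviations of same-numbered libraries correlated at -0.117.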

Additional observations from a re-analysis of the deposited data

Results flagged for a closer look

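Of the 36 kinesins, 2 had a control that stood apart from the other controls by more than Dixon's 95% criterion for 4 samples, which chance reaches in about 1 group in 20. Kif26b was at 86.1 CPM in control 2 and at 61.3 to 63.9 CPM in the other controls, and Foxp1cKO 2 was at 79.8 CPM. Kif19a was at 0.952 CPM in control 4 and at 0.517 to 0.563 CPM in the others, on 75 counts in control 4, and Foxp1cKO 2 was at 0.962 CPM. The cause was not tested for either gene.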

How the results depend on the processing

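No kinesin was called under any of 13 alternatives, with 0 to 5 of the 36 at an unadjusted p under 0.05 (5 without control 3 and under the crossed block). Over all genes the 26 calls became 507 with DESeq2, 0 with the replicate block, 1301 with the crossed replicate block, which was added after the data were examined, and 2 to 96 when each library was left out (96 without control 4). The pairing by replicate number rests on a number only, and the block changed no kinesin call. The cause of these moves was not tested. The median log2 fold change of the broadly expressed kinesins ran from -0.048 to 0.0070 when each library was left out, that of the mitotic kinesins from -0.21 to 0.0015 and that of the neuron-enriched kinesins from -0.12 to 0.15. Leaving out each library also turned the sign of some members, with ranges of -0.14 to 0.025 for Kif11, -0.026 to 0.17 for Kif14, -0.15 to 0.052 for Kif15, -0.14 to 0.075 for Kif18b, -0.22 to 0.011 for Kif20b, -0.26 to 0.00027 for Kif23, -0.12 to 0.060 for Kif1a, -0.24 to 0.011 for Kif3c and -0.15 to 0.20 for Kif5a. Kif1a was also at 0.019 with limma, 0.014 with total counts and 0.0018 with the count minimum. Kif17 ran from 0.39 with limma on the VST scale to 1.42 without Foxp1cKO 1, with adjusted p from 0.110 to 0.678. The contrast of the lists ran from 0.049 without control 4 to 0.43 without control 3. With 4 against 2 libraries that differ this much, changes of any size inside the printed intervals remain possible.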

Other observations

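Markers of cell types other than radial glia and neurons were measured in the same libraries. The 4 mural cell markers were all higher in the fit, with a median log2 fold change of 0.49 and 2 of 4 (Rgs5 and Cspg4, each with both labelled mutants above all controls) at an unadjusted p under 0.05, against 13% of all genes and 6.53% in this direction, and they summed to 52.6 to 66.8 CPM in the controls and 85.7 to 88.2 CPM in the libraries labelled Foxp1cKO. The 5 endothelial markers summed to 108 to 168 CPM in the controls and 134 to 164 CPM in the labelled mutants, with a median of 0.0035. Of these, Pecam1 had both labelled mutants above all controls, with a log2 fold change of 0.65 and an unadjusted p of 0.0061 in the edgeR quasi-likelihood test. The 4 microglia markers summed to 15.5 to 23.9 CPM and 20.7 to 21.9 CPM, with a median of 0.052. The 4 markers of intermediate progenitors, the dividing daughters of radial glia, were all lower in the fit with a median of -0.27, and Btg2 had both labelled mutants below all controls. The 5 Cajal-Retzius markers were all higher in the fit with a median of 0.30, and Lhx1 had both labelled mutants above all controls. None of these genes was called by edgeR's quasi-likelihood test, and their part in the kinesin values was not tested. For comparison, both labelled mutants lay above all controls for 11.5% of all genes and below them for 13.1%.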
